A study of Mus musculus with 19 samples.

Results

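The genes described here encode the protein components of the cytosolic ribosome, measured by bulk RNA sequencing in mouse bone marrow cells sorted as monocytes. They were chosen by name: a gene belonged if its symbol was Rpl or Rps followed by a number, with or without a closing a, l, x or l1, or was Rplp0, Rplp1, Rplp2 or Rpsa. In all, 84 genes of the 50854 in the count table matched, and 81 of them averaged at least 1 read over the 19 libraries and were tested among 18652 genes. The 3 that did not reach that level were Rpl10l, Rps23 and Rps12l1. Of the 81 members, 30 belong to the small subunit, 48 to the large subunit and 3 to the stalk of the large subunit, and 8 are paralogs named after another member. Of these paralogs, Rpl32l, Rpl6l and Rps4l are annotated as processed pseudogenes with no coding sequence. Rpl15 and Rps24 were not analysed here.

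The study compared monocytes that carry both CCR1 and CCR2, a pair of chemokine receptors that guide cells to inflamed tissue, with those that carry CCR2 alone, at rest and in inflammation. All mice were female and 8 to 12 weeks old. The CCR1/2 and CCR2 monocytes came from bone marrow of REP mice, a reporter strain in which fluorescent proteins mark CCR1 (Clover) and CCR2 (mRuby2), and were sorted as resting CCR1/2 (n = 4), resting CCR2 (n = 4), inflamed CCR1/2 (n = 3, labelled replicates 2, 3 and 4) and inflamed CCR2 (n = 4). The labels hold a further group, inflamed CCR1 (n = 4), whose mice and sort the study's methods do not describe. The study names CD11b+ Ly6C++ Ly6G- SiglecF- as its monocyte gate in other experiments, and the gate of these libraries is not given in the sources used here. Inflamed mice had osmotic pumps that released IL-3, IL-6, GM-CSF and IFN-α for 7 days, and whether resting mice carried vehicle pumps is not given in the sources used here. The same sources do not say whether resting and inflamed libraries were prepared or sequenced together. No label says that replicates came from separate animals, so the p-values below measure only the spread between these libraries, which may be technical.

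A ribosome is built from ribosomal RNA and a protein set in which nearly every protein is present as a single copy, and the genes for these proteins are among the most transcribed in dividing cells. Their mRNAs begin with a run of pyrimidines, the terminal oligopyrimidine (TOP) motif, through which the kinase mTOR and the protein LARP1 set how strongly they are translated. In bone marrow, ribosome production goes with the growth and division of precursor cells.

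The 8 gene starts below are shown because they belong to members named in the comparisons that follow, most of them among those that changed most. Each is 30 bases of the transcribed strand, 15 on either side of the start annotated by RefSeq on GRCm38.p6, 5′ to 3′, with the longest uninterrupted run of C or T in capitals. The windows lie at chr8:123102335-123102364 (plus strand) for Rpl13, chr17:24720048-24720077 (plus) for Rps2, chr3:90213634-90213663 (minus) for Rps27, chr11:114668565-114668594 (plus) for Rpl38, chr10:23787195-23787224 (minus) for Rps12, chr9:120127751-120127780 (plus) for Rpsa, chr9:120571502-120571531 (plus) for Rpl14 and chr2:32961697-32961726 (plus) for Rpl12.
Rpl13: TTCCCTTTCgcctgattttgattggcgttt
Rps2: aggcagtcgagatctcgcgCTTCTTggagc
Rps27: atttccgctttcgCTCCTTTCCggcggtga
Rpl38: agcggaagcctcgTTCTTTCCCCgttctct
Rps12: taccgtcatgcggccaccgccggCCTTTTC
Rpsa: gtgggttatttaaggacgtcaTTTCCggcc
Rpl14: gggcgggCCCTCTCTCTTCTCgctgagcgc
Rpl12: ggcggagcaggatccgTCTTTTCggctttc

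The annotated start lies between bases 15 and 16 of each window. In Rpl14, Rpl38 and Rps27 the run crosses it, in Rpl13 the run ends before it at base 9, and in Rpl12, Rps2, Rpsa and Rps12 it begins after it, at bases 17, 20, 22 and 24. In Rps2 the run has 6 bases and in Rpsa 5. A run in such a window is therefore a description of these letters and does not by itself establish or exclude a TOP motif.

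RefSeq gave such a window for 59 members. A run of at least 7 pyrimidines was found in 30 of them (50.8%), against 4992 of the 27025 genes with a window (18.5%), and a run of at least 10 in 17 members (28.8%) against 1403 genes (5.2%). The median run was 7 bases in the members and 4 bases in all genes. Members with a run of at least 7 and those with a shorter one had close median log2 fold changes, which were 0.24 and 0.21 between the resting groups, -0.29 and -0.23 with inflammation in CCR2 cells, and -0.44 and -0.31 with inflammation in CCR1/2 cells.

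Between 22268658 and 30502009 reads were counted on genes per library. Levels are given as CPM, reads relative to library size, scaled with TMM factors over all 19 libraries. Fold changes come from edgeR's quasi-likelihood test scaled on the groups compared alone, so that they can differ somewhat from the ratio of the CPM values, with Benjamini-Hochberg adjustment over all genes tested. A gene is called higher or lower at an adjusted p below 0.05. In the inflamed CCR1 group the markers went against the monocyte label: all 10 monocyte markers were lower than in inflamed CCR2 cells (summed 7835 to 12473 CPM against 47939 to 58472 CPM), Csf1r, the receptor monocytes depend on, averaged 17.7 CPM against 1504 CPM, and 10 neutrophil markers summed to 103165 to 151221 CPM against 1197 to 1520 CPM. Ccr1 itself averaged 38.0 CPM there and 209 CPM in inflamed CCR2 cells. Values of the library group labelled inflamed CCR1 are therefore given apart. In bulk libraries fewer cells with a transcript and less of it per cell cannot be told apart.

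The members' mean share of the reads was larger in the resting groups than in the inflamed ones. Their share was 2.53% ± 0.024 (SD, n = 4) in resting CCR1/2 cells and 2.20% ± 0.094 (n = 4) in resting CCR2 cells. It was 1.74% ± 0.14 (n = 3) in inflamed CCR1/2 cells, 1.63% ± 0.155 (n = 4) in the inflamed CCR1 group and 1.78% ± 0.364 (n = 4) in inflamed CCR2 cells. The lowest resting library (2.12%) stood above the highest inflamed one (2.10%), and the lowest resting CCR1/2 library (2.52%) above the highest resting CCR2 one (2.33%). Inflamed CCR2 cells were the most uneven, with 2.07%, 2.10%, 1.61% and 1.35% in replicates 1 to 4. The 95% Wilson interval of 1 library's share was about 0.006 percentage points wide on either side in resting CCR1/2 replicate 1, and covers counting error only. The separation of resting from inflamed libraries did not hold on other scales. With the 100 most abundant other genes out of the denominator, inflamed CCR2 libraries reached 2.89%, above the lowest resting CCR2 library at 2.84%. The members' summed TMM-scaled CPM was 22234 and 21965 in inflamed CCR2 replicates 1 and 2, above all resting CCR2 libraries (20282 to 21608). In inflamed CCR1/2 replicate 2 it was 20619, within the range of the resting libraries (19844 to 24130). As a score over the members, the share was not tested.

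**Figure D1:**
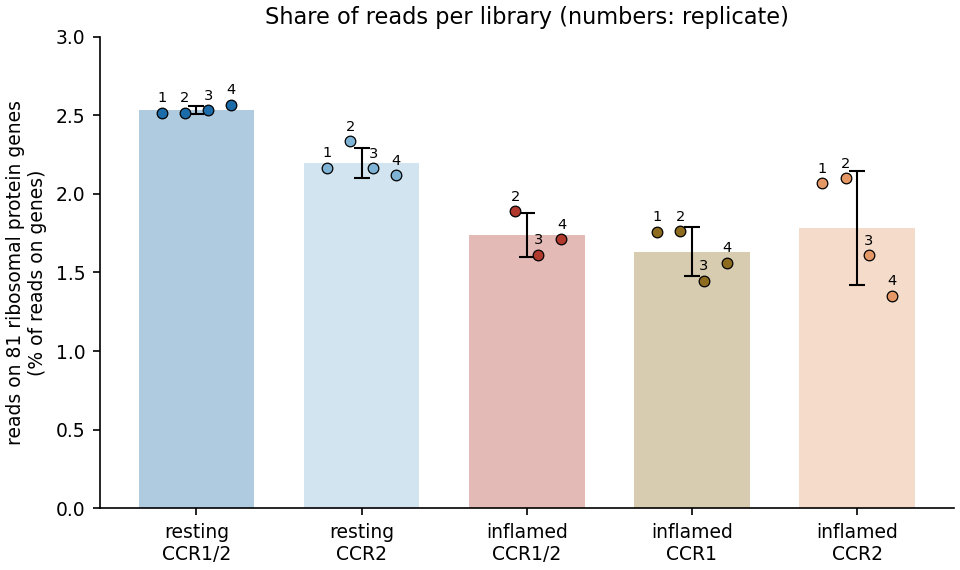
Share of the reads on genes that fell on the 81 ribosomal protein genes (%, vertical axis from 0) in each library of the 5 groups. Points are libraries with their replicate number, bars are group means and error bars are 1 SD. Resting CCR1/2 libraries lie at 2.52 to 2.57%, resting CCR2 at 2.12 to 2.33%, and the inflamed groups at 1.35 to 2.10%.

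Single members spanned a wide range of levels, and their order was nearly the same within a condition. Per kilobase of mRNA, the highest in resting CCR2 cells were Rpl32 (1427 CPM per kb), Rps27 (1357), Rps9 (1163), Rps14 (1127) and the stalk base Rplp0 (1007). The lowest were Rpl39l (0.239 CPM per kb), Rpl3l (0.442), Rpl24 (0.663), Rpl6l (2.46) and Rpl13a (7.37). Across the 81 members, Spearman's rho of these levels was 0.99 between the resting groups and 0.97 to 0.99 among the inflamed groups, and 0.82 to 0.86 between a resting and an inflamed group. The points share their gene lengths and the same mappability, so these are descriptions.

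A low count of a ribosomal protein gene need not mean little mRNA, because the deposited counts hold only reads that aligned to a single place and many members have near-identical copies. Of the 81, 58 have at least 1 pseudogene named after them, and a median of 53.6% of their 50-base words occur in transcripts of other genes. Rps27 is the extreme, with 98.6% of its words elsewhere, most of them in Rps27rt, and is also among the highest members per kb. Rpl39l and Rpl3l, the lowest per kb, have 0% of their words elsewhere. Across the 81 members, the level per kb in resting CCR2 cells had a Spearman's rho of 0.04 with the share of words elsewhere. With the number of named pseudogenes it was -0.0001. How far shared sequence lowered single counts was not tested. The exons of Rpl24 overlap those of Gm28037 over 47.0% of their length, and those of Rpl13a overlap other genes over 35.4%, while 44 members have no overlapped exonic base. Whether reads were counted by strand is not given in the sources used here. Levels of these members are therefore uncertain, and comparisons between libraries of the same gene rest on the reads that stayed unique.

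At rest, many ribosomal protein mRNAs of both subunits were higher in CCR1/2 than in CCR2 cells, by small amounts. Of the 81 members, 32 were called higher (39.5%), where 8.44% of all genes were, and none was called lower, where 8.44% of all genes were. None passed a log2 fold change of 1 in either direction, against 2.34% and 1.9% of all genes. By subunit, 17 of 48 large, 15 of 30 small and 0 of 3 stalk members were higher. The median log2 fold change was 0.18 over the members and 0.03 over all genes, and 67 of the 81 lay above 0. In 24 members all resting CCR1/2 libraries exceeded all resting CCR2 libraries (8.2% of all genes did), and in 1, Rps27, the order was the opposite (12% of all genes).

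Rpl12, a large subunit protein at the base of the stalk, differed most among those called. It stood at 71.1, 71.9, 73.4 and 75.6 CPM in resting CCR1/2 cells and at 44.7, 52.3, 48.9 and 44.5 CPM in resting CCR2 cells. The groups did not overlap, and Rpl12 was 1.62-fold higher (log2 fold change 0.69 ± 0.08 SE, adjusted p = 0.000128, exact permutation p = 0.0286, the smallest that 4 against 4 libraries allow). Rps12, a small subunit protein, read 53.2, 54.6, 59.9 and 55.8 CPM against 42.8, 44.5, 36.3 and 38.3 CPM, again without overlap. It was higher by 0.54 ± 0.09 on the log2 scale (adjusted p = 0.00146). Rpl41, the smallest member with 25 residues, read 294, 272, 275 and 283 CPM against 196, 241, 207 and 196 CPM and was higher by 0.49 ± 0.09 (adjusted p = 0.00185). All resting CCR1/2 libraries exceeded all resting CCR2 libraries for it.

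Paralogs took part as well. Rps27l, a p53-responsive relative of Rps27, averaged 202 ± 5.05 CPM (SD, n = 4) in resting CCR1/2 cells and 150 ± 19.7 CPM in resting CCR2 cells (log2 fold change 0.50 ± 0.10, adjusted p = 0.00368). Rpl22l1, the relative of Rpl22, averaged 40.6 ± 1.87 CPM against 29.8 ± 3.86 CPM (0.52 ± 0.10, adjusted p = 0.0049). Their partners did not pass the test. Rps27 was at 391 against 468 CPM (-0.18 ± 0.08, adjusted p = 0.143) and Rpl22 at 62.8 against 61.4 CPM (0.11 ± 0.07, adjusted p = 0.382).

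Several members with known roles beyond the ribosome were among those called. Rpl5, which with Rpl11 can bind and block the p53 regulator MDM2, read 247, 238, 270 and 254 CPM against 228, 231, 219 and 222 CPM, without overlap (0.24 ± 0.07, adjusted p = 0.027). Its call was lost in 7 of 18 alternatives. Rpl11 itself was at 178 against 166 CPM and did not pass (0.18 ± 0.07, adjusted p = 0.104). Rps3, which also acts in DNA repair, was 1.31-fold higher (adjusted p = 0.00741), and Rps19, mutated in Diamond-Blackfan anaemia, 1.22-fold higher (adjusted p = 0.0224). Rps14 (0.19 ± 0.08, adjusted p = 0.121) and Rps6, the substrate of S6 kinase (0.13 ± 0.07, adjusted p = 0.217), were not called.

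**Figure D2:**
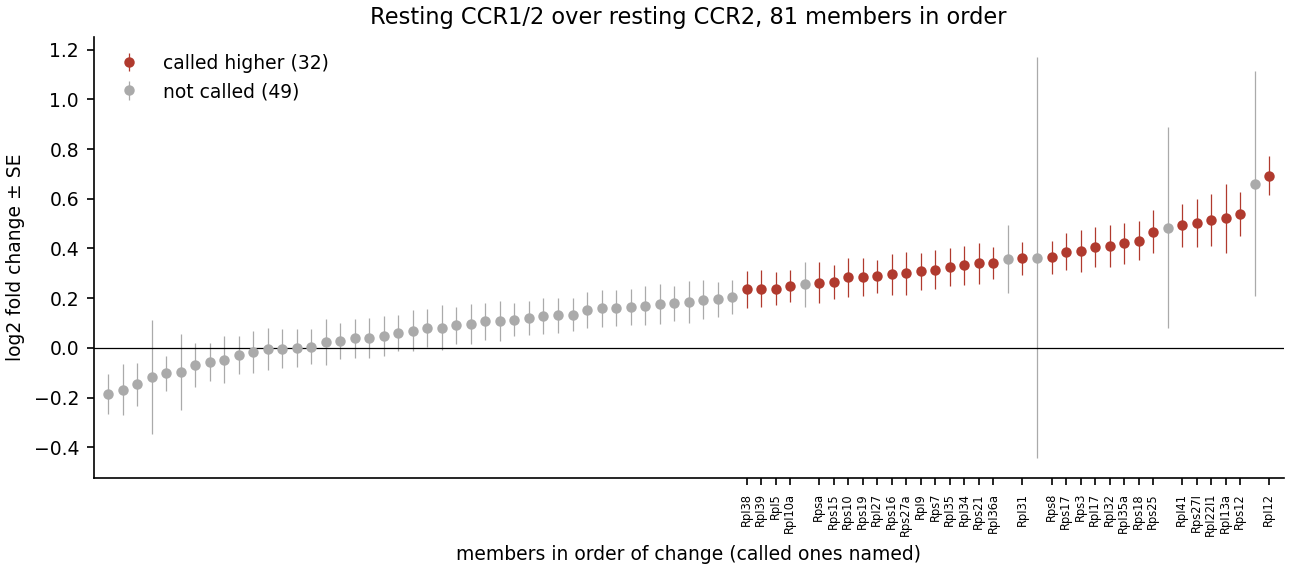
Log2 fold change of each of the 81 members in resting CCR1/2 over resting CCR2 cells (vertical axis, points with 1 SE), ordered from lowest to highest along the horizontal axis. The 32 members called higher are in red and named on the axis, from 0.24 to 0.69, and the other 49 are in grey. None is called below 0.

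Markers of division moved with this difference. All 20 genes of a dividing-cell list were called higher in resting CCR1/2 cells (median log2 fold change 0.91, summed 4967 to 6238 CPM against 2802 to 3531 CPM), as were 5 of 5 early granulocyte markers, 5 of 10 neutrophil markers and 4 of 7 macrophage markers, while 6 of 10 monocyte, 6 of 8 dendritic cell and 3 of 7 macrophage markers were lower. The dendritic cell markers had a median of -2.04 and summed to 164 to 435 CPM against 806 to 2366 CPM. The part of these cell types in the ribosomal protein difference was not tested. The libraries with the same replicate number deviated together in both resting groups, and with the replicate number as a block 40 members were called higher (49.4%, against 12.4% of all genes) and 3 lower (3.7%, against 13.2%). The count also moved with 1 library at a time, to 19 higher without resting CCR2 replicate 3 (23.5%, against 6.2% of all genes) and 21 without resting CCR2 replicate 4 (25.9%, against 5.76%). With all 19 libraries in a single fit only 3 were called higher, Rpl12, Rps12 and Rpl13a, which at 3.7% of the members is below the 5.39% of all genes.

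With inflammation Rpl13, Rps2 and Rps27 fell deeply in both populations, many other ribosomal protein mRNAs were lower by less, and a few were higher. A change with inflammation cannot be told apart here from a difference between the resting and inflamed sets of libraries. In CCR2 cells 30 of the 81 were called lower with inflammation (37%, against 25.9% of all genes) and 5 higher (6.17%, against 21.9%). Without any 1 of the 4 resting CCR2 libraries, 18 or 19 members were called lower (22.2% to 23.5%, against 22.8% to 23.1% of all genes), a share near the background. Without inflamed CCR2 replicate 4, 12 were called higher (14.8%, against 21.5%) and 26 lower (32.1%, against 25.2%). In CCR1/2 cells 52 were lower (64.2%, against 25.4%) and 2 higher (2.47%, against 20.6%), and without any 1 library 38 to 51 were lower (46.9% to 63%, against 21.4% to 24.1% of all genes). Past a log2 fold change of -1, which 19.2% and 19.4% of all genes passed, there were 13 members (16%) in CCR2 cells and 16 (19.8%) in CCR1/2 cells. None was called higher past a log2 fold change of 1 in either, against 9.37% and 9.16% of all genes. Past -2 there were 3 members (3.7%) in each, against 11.2% and 11.7% of all genes. The members' median log2 fold change was -0.26 in CCR2 cells and -0.38 in CCR1/2 cells, beside -0.10 and -0.25 over all genes, and it was below 0 under each scaling and model tried (-0.33 to -0.10 and -0.58 to -0.20). It was not always below that of all genes. In CCR1/2 cells it was -0.21 beside -0.22 with each gene's GC content and length corrected for, and -0.39 beside -0.45 with no filter on low counts. In CCR2 cells it was -0.10 beside -0.07 with the GC and length correction, and -0.12 beside -0.12 without inflamed CCR2 replicate 4.

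The comparisons in CCR2 and CCR1/2 cells share no library, although each shares its resting libraries with the comparison at rest. Same-numbered resting libraries of the populations also deviated together (correlations of 0.33 to 0.54), so the comparisons may not be independent. Of the 30 members lower in CCR2 cells, 29 (96.7%) were also lower in CCR1/2 cells, where they made up 55.8% of the 52. The same overlap over all genes was not counted, so it cannot be said to be particular to the members. The member lower in CCR2 cells but not called in CCR1/2 cells was Rps4x. Groups did not overlap in 24 lower and 5 higher members in CCR2 cells (23.5% and 22.2% of all genes) and in 39 lower and 5 higher in CCR1/2 cells (25.7% and 24.4%). By subunit, 11 of 30 small, 18 of 48 large and 1 of 3 stalk members were lower in CCR2 cells, and 18, 32 and 2 in CCR1/2 cells.

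**Figure D3:**
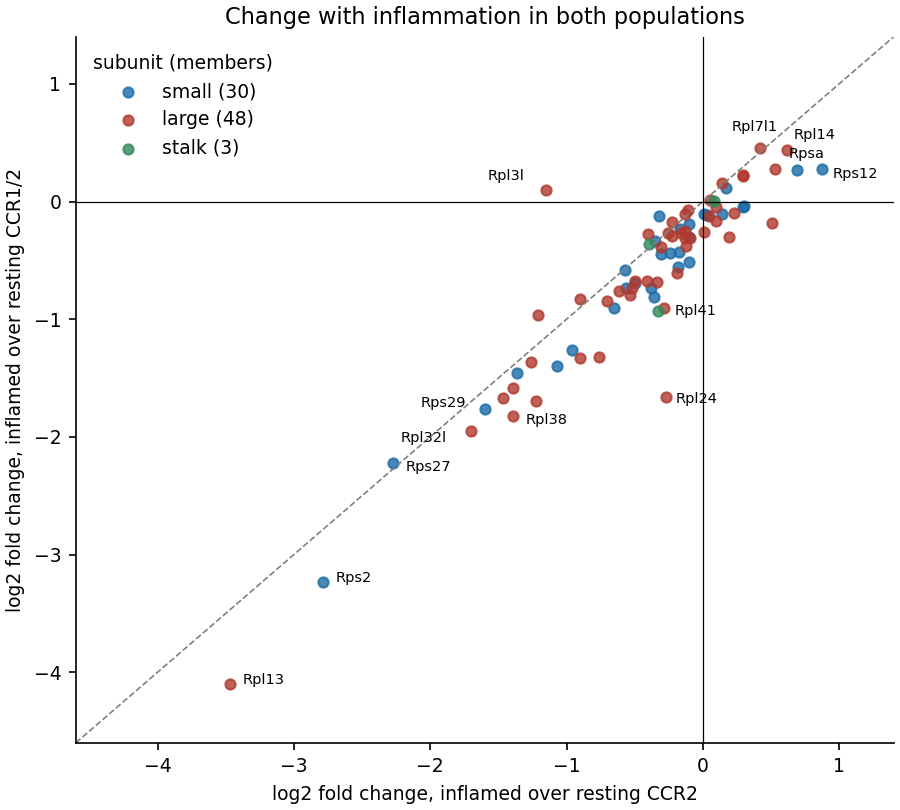
Log2 fold change with inflammation in CCR2 cells (horizontal axis) against that in CCR1/2 cells (vertical axis) for the 81 members, coloured by subunit; the dashed line marks equal change. Rpl13, Rps2 and Rps27 lie lowest on both axes, and Rpl14 and Rpl7l1 are above 0 on both.

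Rpl13, a large subunit protein, fell furthest. It read 687, 683, 762 and 773 CPM in resting CCR2 cells and 75.9, 62.6, 79.1 and 58.1 CPM in inflamed CCR2 cells, so the groups lay far apart. The fall was 11.1-fold (log2 fold change -3.47 ± 0.12, adjusted p = 2.3e-11). For CCR1/2 cells the values went from 616, 595, 747 and 765 CPM to 30.7, 39.8 and 58.8 CPM, a 17.1-fold fall (-4.10 ± 0.23, adjusted p = 7.48e-07). Its processed copy Rpl13-ps1 fell with it, from a mean of 4.22 to 0.179 CPM in CCR2 cells (-4.57 ± 0.38, adjusted p = 1.08e-07).

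Rps2, a small subunit protein, fell 6.89-fold in CCR2 cells, from 370, 378, 409 and 406 CPM to 67.8, 52.9, 60.5 and 57 CPM (-2.78 ± 0.11, adjusted p = 4.72e-11). It fell 9.41-fold in CCR1/2 cells, from 366, 389, 449 and 475 CPM to 48.3, 50.1 and 47.5 CPM (-3.23 ± 0.10, adjusted p = 1.45e-09). No resting library came near an inflamed one. Rps27, a zinc finger protein of the small subunit, went from 466, 458, 444 and 504 CPM to 134, 144, 88.3 and 43.5 CPM in CCR2 cells (-2.27 ± 0.29, adjusted p = 7.03e-05). Its fall in CCR1/2 cells was of like size, from 410, 332, 413 and 409 CPM to 76.4, 85.7 and 112 CPM (-2.22 ± 0.14, adjusted p = 2.09e-07). Without these 3 genes the members took 2.36% and 2.03% of the reads in the resting CCR1/2 and CCR2 groups and 1.72% and 1.76% in the inflamed ones.

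Genes for the shortest proteins fell more than the rest. Of the 11 members that encode at most 100 residues, 8 were lower in CCR2 cells and 10 in CCR1/2 cells (25.9% and 25.4% of all genes were). Their median log2 fold changes were -1.22 and -1.40. The medians were -0.33 and -0.64 for the 26 members of over 100 and up to 150 residues, -0.18 and -0.31 for the 19 of up to 200, and 0.05 and -0.11 for the 22 over 200. Among the other coding genes tested, the 283 of at most 100 residues had medians of -0.25 and -0.38, and the 10725 over 200 residues 0.02 and -0.01. How many of these other genes were called in each length class was not counted. Over the 73 members that are not paralogs, Spearman's rho of the change with protein length was 0.53 in CCR2 and 0.63 in CCR1/2 cells, against 0.13 and 0.12 over the 12531 coding genes. It was 0.44 and 0.49 with mRNA length, 0.13 and 0.10 with GC content, and 0.09 and 0.08 with the share of words found elsewhere. Over all 81 members, rho of the change with mean CPM was 0.35 and 0.43. Whether the trend with protein length remains once GC content and mRNA length are corrected for was not tested. These are correlations across genes, which are not independent replicates, and all genes of a comparison come from the same libraries.

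The values of single short members show how uneven the inflamed CCR2 libraries were. Rps29, with 56 residues, read 132, 131, 144 and 161 CPM in resting CCR2 cells and 72.8, 67.8, 36.1 and 22.0 CPM in inflamed ones (-1.60 ± 0.30, adjusted p = 0.00122). Rpl38, with 70 residues and known for its part in the translation of Hox mRNAs, read 82.6, 85.8, 80.8 and 89.2 CPM and then 47.5, 48.9, 24.1 and 15.8 CPM (-1.39 ± 0.29, adjusted p = 0.00173). Rpl39, with 51 residues at the exit tunnel, read 46.6, 50.5, 49.2 and 45.9 CPM and then 29.9, 32.4, 17.0 and 7.96 CPM (-1.22 ± 0.33, adjusted p = 0.0101). For each, inflamed CCR2 replicate 4 was the lowest and replicates 1 and 2 the highest, all below every resting library. Rpl37a, with 92 residues, gave the same order, at 129, 131, 77.8 and 43.0 CPM after 237 to 264 CPM at rest (-1.47 ± 0.27, adjusted p = 0.000909).

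In CCR1/2 cells the standard errors of these genes were smaller. Rps29 averaged 130 ± 16.0 CPM (SD, n = 4) at rest and 42 ± 10.0 CPM (n = 3) in inflammation (-1.76 ± 0.17, adjusted p = 9.04e-06), Rpl38 94.5 ± 6.46 and 29.2 ± 3.40 CPM (-1.82 ± 0.12, adjusted p = 2.36e-07), and Rpl39 53.8 ± 2.47 and 18.1 ± 2.14 CPM (-1.70 ± 0.12, adjusted p = 4.74e-07). None of their groups overlapped. Rpl41, of 25 residues, went from 294, 272, 275 and 283 CPM to 164, 155 and 173 CPM in CCR1/2 cells (-0.91 ± 0.09, adjusted p = 6.52e-06). In CCR2 cells its inflamed libraries read 236, 244, 160 and 90.2 CPM, overlapped the resting ones and did not pass (-0.29 ± 0.23, adjusted p = 0.344).

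Members of other lengths also passed a log2 fold change of -1. Rpl23a, with 156 residues near the exit tunnel, read 45.4, 41.8, 50.9 and 50.4 CPM in resting and 25.2, 26, 20.9 and 13.6 CPM in inflamed CCR2 cells (-1.21 ± 0.16, adjusted p = 1.84e-05). Rps26, with 115 residues at the mRNA exit, went from 292 ± 21.6 to 120 ± 50.3 CPM in CCR2 cells (-1.36 ± 0.25, adjusted p = 0.000577) and from 285 ± 30.3 to 114 ± 1.49 CPM in CCR1/2 cells (-1.45 ± 0.09, adjusted p = 1.05e-07). Rpl32l, a processed copy of Rpl32, read 8.48, 7.49, 7.26 and 7.81 CPM and then 2.66, 3.44, 2.13 and 1.85 CPM in CCR2 cells (-1.70 ± 0.21, adjusted p = 9.25e-06). The groups of these 3 genes did not overlap.

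**Figure D4:**
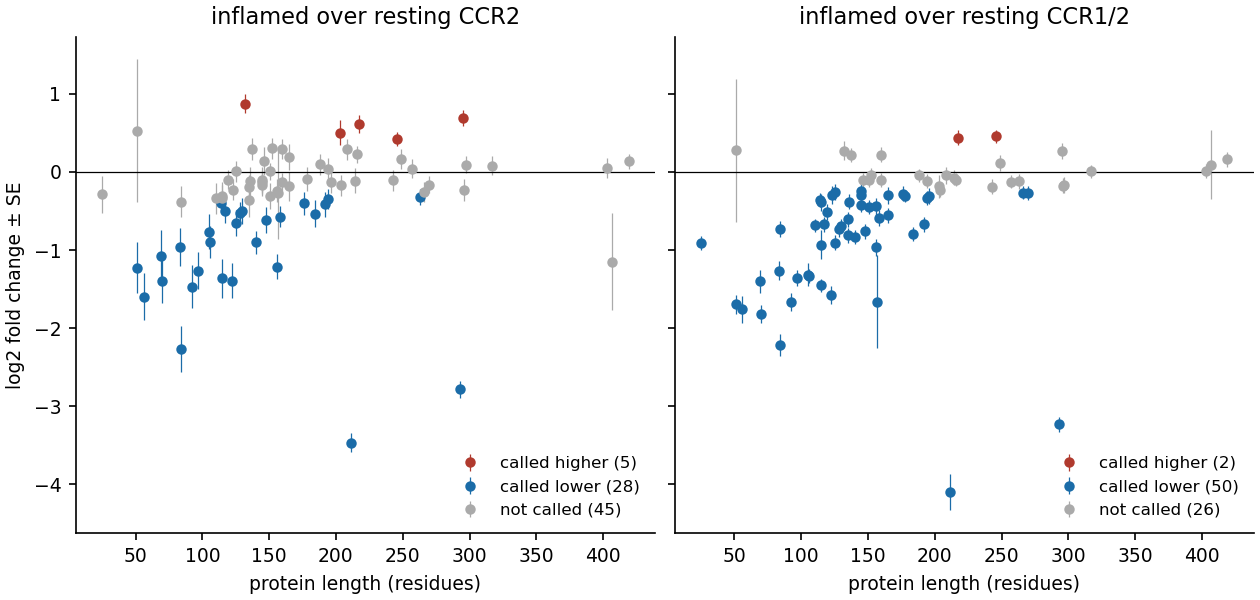
Log2 fold change with inflammation (vertical axis, points with 1 SE) against the length of the encoded protein in residues (horizontal axis) for the 78 members with a coding sequence, in CCR2 cells (left) and CCR1/2 cells (right). Blue points were called lower, red higher and grey neither; points at most 100 residues long sit mostly below -1, and Rpl13 (211 residues) and Rps2 (293 residues) stand apart at the bottom.

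A few members went the other way. Rpl14, of the large subunit, read 275, 253, 281 and 269 CPM in resting and 500, 480, 416 and 344 CPM in inflamed CCR2 cells, without overlap (0.62 ± 0.11, adjusted p = 0.000283). In CCR1/2 cells it went from 259, 273, 308 and 307 CPM to 490, 396 and 390 CPM (0.44 ± 0.09, adjusted p = 0.00222). Rpl7l1, a relative of Rpl7 that acts in the assembly of the large subunit, went from 186, 189, 204 and 203 CPM to 279, 267, 266 and 287 CPM in CCR2 cells (0.42 ± 0.09, adjusted p = 0.00119). Its mean in CCR1/2 cells went from 201 ± 15.8 to 301 ± 24.3 CPM (0.46 ± 0.08, adjusted p = 0.000719). These were the only members called higher in both populations.

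Rps12, Rpsa and Rpl13a were called higher in CCR2 cells alone, although none of them was called in the interaction fit given below. Rps12 went from 42.8, 44.5, 36.3 and 38.3 CPM to 81.4, 86.2, 62.9 and 82.0 CPM (0.87 ± 0.12, adjusted p = 2.94e-05), and Rpsa, which also serves as a laminin receptor, from 208, 211, 213 and 205 CPM to 406, 381, 323 and 312 CPM (0.69 ± 0.10, adjusted p = 3.98e-05). Neither overlapped. In CCR1/2 cells Rps12 read 53.2 to 59.9 CPM at rest and 84.4, 59.3 and 78.2 CPM in inflammation (0.27 ± 0.12, adjusted p = 0.0829), and Rpsa 208 to 271 CPM and 358, 294 and 288 CPM (0.27 ± 0.10, adjusted p = 0.0513). The Rpsa groups did not overlap there either. Rpl13a, which in activated myeloid cells can leave the ribosome to block translation of inflammatory mRNAs, averaged 7.72 ± 0.973 and 11.5 ± 0.928 CPM in CCR2 cells (0.51 ± 0.16, adjusted p = 0.0155) and 10.5 ± 0.997 and 10.1 ± 1.03 CPM in CCR1/2 cells (-0.19 ± 0.15, adjusted p = 0.354).

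**Figure D5:**
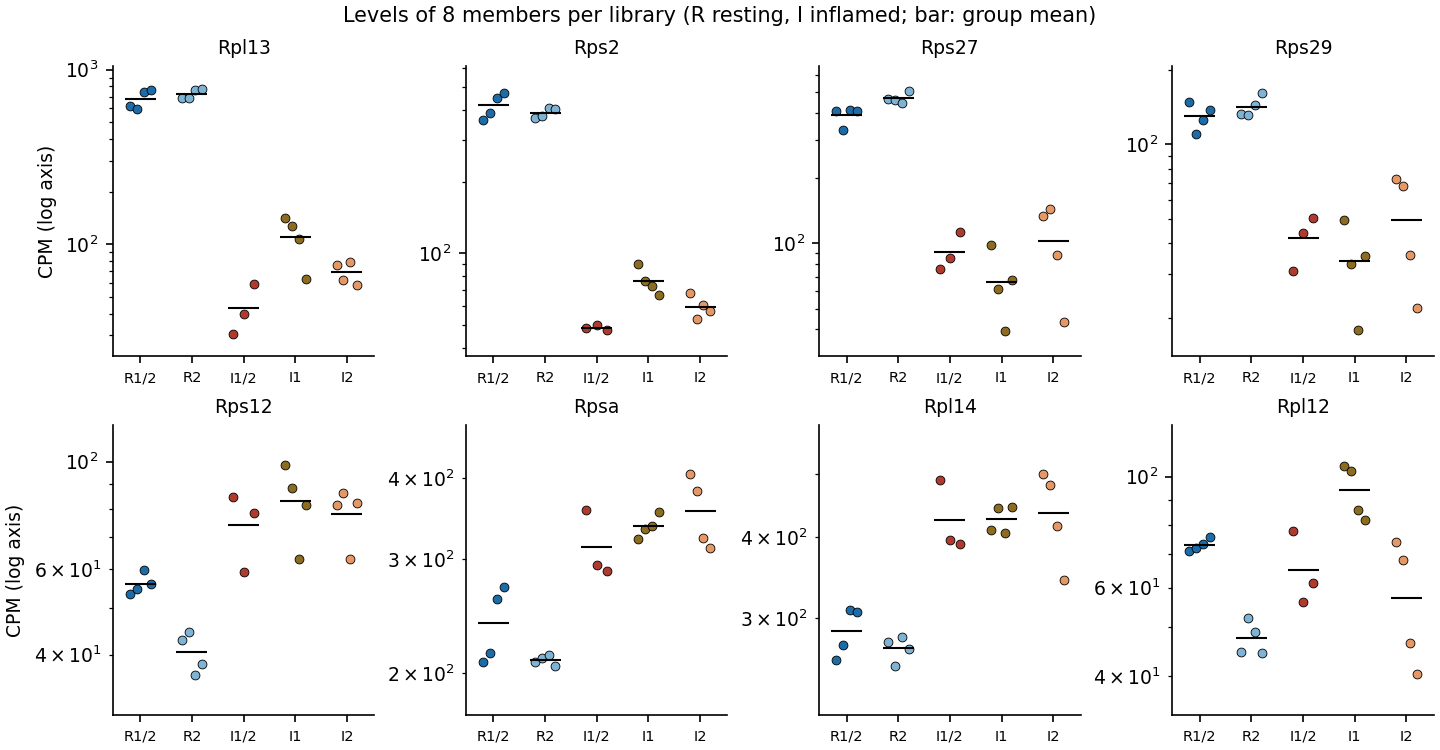
Level of 8 members (CPM, log axis, a separate scale for each) in every library of the 5 groups, R for resting and I for inflamed; bars are group means. Rpl13, Rps2, Rps27 and Rps29 are lower in every inflamed library than in every resting one, and Rpl14 is higher in every inflamed library.

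Of the stalk proteins, Rplp0 did not pass the test, Rplp1 was lower in both populations and Rplp2 in CCR1/2 cells. Rplp0, the base of the stalk, averaged 1368 ± 120 and 1523 ± 299 CPM in resting and inflamed CCR2 cells (0.08 ± 0.12, adjusted p = 0.631) and 1375 ± 174 and 1507 ± 110 CPM in CCR1/2 cells (0.01 ± 0.09, adjusted p = 0.965). Rplp1, a tip protein of the stalk, fell in both (-0.39 ± 0.13, adjusted p = 0.0231, and -0.36 ± 0.09, adjusted p = 0.00642), calls lost in 6 of 18 alternatives in CCR2 cells and 6 of 17 in CCR1/2 cells. Its partner Rplp2 passed only in CCR1/2 cells, from 162, 150, 193 and 194 CPM to 68.6, 105 and 124 CPM (-0.93 ± 0.19, adjusted p = 0.00204, and -0.33 ± 0.21, adjusted p = 0.209, in CCR2 cells). Rpl3, which lies near the catalytic centre, read 0.05 ± 0.13 and 0.01 ± 0.09, and Rps6 0.17 ± 0.13 and 0.11 ± 0.10, none of them past the test.

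Rps19 shows how far single calls depend on the correction used. It was called lower in inflamed CCR1/2 cells, from 639 ± 64.4 to 568 ± 33.8 CPM (-0.30 ± 0.08, adjusted p = 0.0102), but the change became 0.46 when each gene's GC content and length were corrected for library by library. With that correction 14 members were higher (17.3%, against 22.3% of all genes) and 23 lower (28.4%, against 25.9%) in CCR2 cells, and 9 higher (11.1%, against 20%) and 34 lower (42%, against 25.1%) in CCR1/2 cells. Rpl24 was also called lower in CCR1/2 cells, from 0.684 to 0.231 CPM, at levels near the detection limit and with its exons shared.

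The paralogs Rpl22l1 and Rpl7l1 are given here beside their partners. Rpl22l1 fell 2.63-fold in CCR2 cells, from 31.0, 34.8, 26.7 and 26.8 CPM to 14.8, 16.2, 10.8 and 6.20 CPM (-1.39 ± 0.23, adjusted p = 0.000109), and 2.99-fold in CCR1/2 cells (-1.58 ± 0.11, adjusted p = 5.2e-07). Rpl22, whose product is known to hold Rpl22l1 in check, fell by less, from 61.4 to 45.1 CPM (-0.52 ± 0.13, adjusted p = 0.00382) and from 62.8 to 41.3 CPM (-0.73 ± 0.10, adjusted p = 6.73e-05). Rpl7, beside its rising relative Rpl7l1, was at -0.16 ± 0.11 (adjusted p = 0.257) in CCR2 cells and fell by 0.27 ± 0.09 on the log2 scale in CCR1/2 cells (adjusted p = 0.0246), a call lost in 12 of the 17 alternatives. Rps27l, beside Rps27, was at -0.38 ± 0.20 (adjusted p = 0.133) and -0.73 ± 0.10 (adjusted p = 9.59e-05).

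Markers of other cell types moved with inflammation too. Erythroid markers were called lower in 8 of 9 cases in CCR2 cells (summed 99.2 to 301 CPM at rest and 7.06 to 17.9 CPM in inflammation) and in 7 of 9 in CCR1/2 cells (66.1 to 189 and 10.4 to 26.8 CPM). All 5 early granulocyte markers were lower in CCR1/2 cells (median log2 fold change -1.98, summed 3291 to 6794 CPM and then 955 to 1367 CPM), and 2 of 5 in CCR2 cells. Of 10 neutrophil markers, 6 were higher and 0 lower in CCR2 cells and 5 and 2 in CCR1/2 cells. Of 10 monocyte markers, 4 were higher and 2 lower in CCR2 cells and 6 and 2 in CCR1/2 cells. Of 7 macrophage markers, 5 were higher and 0 lower in CCR2 cells and 3 and 3 in CCR1/2 cells, and of 8 dendritic cell markers 0 and 4, and 2 and 3. Of the 20 dividing-cell genes, 11 were higher and 1 lower in CCR2 cells and 6 and 4 in CCR1/2 cells. The part of these markers in the ribosomal protein changes was not tested.

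The change with inflammation was not shown to differ between the populations. In the interaction fit no member was called in either direction, where 0.241% and 0.155% of all genes were, nor with a log2 difference of at least 1 (0.0911% and 0.123%). At an unadjusted p below 0.05 there were 0 members on the higher side (5.73% of all genes) and 11 on the lower side (13.6%, against 7.24%), and DESeq2 called 0 and 2, Rps12 and Rpl13a. The interaction was below 0, a deeper fall or smaller rise in CCR1/2 cells, for 74 of the 81 members, with a median of -0.23 beside -0.10 over all genes. The quartiles were -0.38 and -0.12 over the members and -0.56 and 0.25 over all genes. How many of all genes lay below 0 was not counted. The smallest unadjusted p-values belonged to Rpl13a (-0.74 ± 0.20, adjusted p = 0.117), Rps12 (-0.64 ± 0.18, adjusted p = 0.117) and Rps2 (-0.49 ± 0.14, adjusted p = 0.117). Without inflamed CCR2 replicate 4, Rpl36 and Rpl41 were called lower, and without inflamed CCR1/2 replicate 4, Rpl13 was. The calls by DESeq2 and without single libraries show only how far the calls moved, as no share of all genes stands beside them.

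Within inflammation, no ribosomal protein gene was called between CCR1/2 and CCR2 cells. None was called higher (0.123% of all genes) or lower (0.0643%) by edgeR or by DESeq2, and none past a log2 fold change of 1 (0.102% and 0.0429% of all genes), while 1 and 2 had an unadjusted p below 0.05 (1.23% and 2.47%, against 4.44% and 4.54% of all genes). The members' median log2 fold change was -0.03, as over all genes, and it turned to 0.11 with the replicate number as a block. Groups did not overlap for Rpl3l, higher in CCR1/2 cells (5.51% of all genes were), and for Rps2, lower (4.21%). Rps2 read 48.3, 50.1 and 47.5 CPM against 67.8, 52.9, 60.5 and 57 CPM (-0.31 ± 0.13, adjusted p = 0.483). Rpl12, which differed most at rest, stood at 77.8, 56.1 and 61.3 CPM against 74.1, 68.1, 46.5 and 40.3 CPM (0.16 ± 0.21, adjusted p = 0.858).

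The group labelled inflamed CCR1, with its neutrophil and early granulocyte markers, differed from the inflamed monocyte groups in few of these genes. Against inflamed CCR2 cells 8 members were called higher (9.88%, against 22.7% of all genes) and 6 lower (7.41%, against 25.4%). Past a log2 fold change of 1 there was 1, Rps4l (14.4% of all genes were that much higher), and none was that much lower (16.8%). Groups did not overlap in 3 higher and 3 lower members (21.2% and 24.1% of all genes). Against inflamed CCR1/2 cells 6 were higher (7.41%, against 20.2%) and 13 lower (16%, against 23%), of which 2 and 1 passed a log2 fold change of 1 (13.2% and 14.6%), and groups did not overlap in 7 and 16 members (22.2% and 25.2%). These comparisons share the inflamed CCR1 libraries. The members' medians were -0.04 and -0.05. In the comparison with CCR2 cells 10 were higher (12.3%, against 23.1% of all genes) and 9 lower (11.1%, against 24.9%) with the replicate block, and 6 higher (7.41%, against 23.2%) and 21 lower (25.9%, against 26.2%) with the GC and length correction.

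Rpl10, which sits near the catalytic centre of the large subunit, was the clearest of those lower. It read 286, 300, 281 and 302 CPM in the inflamed CCR1 group and 632, 636, 514 and 334 CPM in inflamed CCR2 cells (-0.84 ± 0.16, adjusted p = 0.000312), without overlap. Rps9 read 507, 485, 448 and 480 CPM against 849, 844, 682 and 514 CPM (-0.58 ± 0.13, adjusted p = 0.00163), also without overlap. Rplp0 was at 1166 ± 23.8 against 1523 ± 299 CPM (-0.38 ± 0.12, adjusted p = 0.0172), overlapping through inflamed CCR2 replicate 4 at 1124 CPM. The other lower members were Rpl19, Rps14 and Rpl27a.

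Rpl12 was the clearest coding member on the higher side, at 105, 103, 85.8 and 82.0 CPM against 74.1, 68.1, 46.5 and 40.3 CPM (0.73 ± 0.17, adjusted p = 0.00241). All 4 libraries of the inflamed CCR1 group exceeded those of inflamed CCR2 cells. Rps4l, the processed copy of Rps4x, read 10.5, 15.4, 18.5 and 15.9 CPM against 5.93, 6.41, 10.5 and 3.27 CPM (1.21 ± 0.28, adjusted p = 0.00217), while Rps4x did not pass (0.01 ± 0.11, adjusted p = 0.941). Rpl13 and Rps2 were also higher, by 0.68 ± 0.21 (adjusted p = 0.0188) and 0.37 ± 0.13 (adjusted p = 0.0231). Dividing-cell genes summed to 9450 to 10319 CPM in this group, against 3407 to 5581 CPM in inflamed CCR2 cells, and their part in these differences was not tested.

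Around the ribosomal proteins, the other genes of ribosome production moved in both directions. The counts of the lists that follow stand beside 21.9% of all genes called higher and 25.9% called lower with inflammation in CCR2 cells, 20.6% and 25.4% in CCR1/2 cells, and 8.44% in each direction at rest. Of 62 tested genes for rRNA processing and ribosome assembly, 30 were higher and 9 lower with inflammation in CCR2 cells (median log2 fold change 0.26) and 26 and 8 in CCR1/2 cells (0.23). Rrp12, which exports the subunits, went from 7.12 to 33.9 CPM (2.18 ± 0.14, adjusted p = 4.43e-09) and Heatr1, needed for early rRNA processing, from 28.1 to 107 CPM (1.85 ± 0.13, adjusted p = 2.07e-08) in CCR2 cells. In the same cells Imp3, part of the same early complex, fell from 34.3 to 2.27 CPM (-3.98 ± 0.19, adjusted p = 3.81e-10). Of the 17 genes of RNA polymerase I and its factors, 6 were higher and 2 lower in CCR2 cells and 8 and 5 in CCR1/2 cells, with Polr1a, the catalytic subunit, at 1.07 ± 0.17 in CCR2 cells (adjusted p = 7.84e-05) and Ubtf, its activator, at -1.41 ± 0.10 (adjusted p = 2.79e-08).

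Other mRNAs that begin with a TOP motif were called in both directions. Of 21 tested, 7 were higher and 8 lower in CCR2 cells (median -0.01) and 6 and 9 in CCR1/2 cells (-0.13). Eef2, which moves the ribosome along the mRNA, went from 659 to 1309 CPM in CCR2 cells (0.92 ± 0.11, adjusted p = 3.73e-06). Eif3f, a subunit of an initiation factor, fell from 398 to 32.2 CPM (-3.69 ± 0.16, adjusted p = 1.21e-10), and Pabpc1, the poly(A) binding protein, from 1359 to 246 CPM (-2.53 ± 0.13, adjusted p = 5.82e-10).

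Initiation factors were split, with 13 higher and 10 lower of 27 in CCR2 cells and 15 and 10 in CCR1/2 cells. Eif4g2 went from 1107 to 2280 CPM in CCR2 cells (0.97 ± 0.09, adjusted p = 3.02e-07) and Eif5 from 549 to 51.7 CPM (-3.47 ± 0.14, adjusted p = 7.59e-11). Of 28 regulators of ribosome production, 9 were higher and 11 lower in CCR2 cells and 10 and 13 in CCR1/2 cells. Tsc2, which restrains mTOR, was at 19.6 and 81.5 CPM (1.99 ± 0.11, adjusted p = 1.53e-09), and Rheb, which activates it, at 254 and 18.2 CPM (-3.87 ± 0.12, adjusted p = 1.18e-11). Maf1, a repressor of RNA polymerase III, went from 218 to 20.6 CPM (-3.47 ± 0.12, adjusted p = 1.85e-11).

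Mitochondrial ribosomal proteins, a separate set of genes for the ribosome of that organelle, were called in both directions. Of 71 tested, 25 were higher in resting CCR1/2 than CCR2 cells and 1 was lower (median 0.21), and the others were not called. With inflammation 31 were higher and 17 lower in CCR2 cells (0.13) and 26 and 20 in CCR1/2 cells (0.00). Of the 166 annotated ribosomal protein pseudogenes tested, 8 were higher and 0 lower in resting CCR1/2 cells, 29 higher and 59 lower with inflammation in CCR2 cells (median -0.80), and 20 and 56 in CCR1/2 cells (-0.91). Rpsa-ps9 was at 0.592 and 7.25 CPM in resting and inflamed CCR2 cells (3.51 ± 0.31, adjusted p = 1.85e-07). At rest the TOP genes (3 higher and 1 lower), polymerase I genes (2 and 0), assembly genes (8 and 3), initiation factors (3 and 2) and regulators (1 and 4) had few calls.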

How the data were processed

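The authors assessed the reads with fastp, aligned them with STAR 2.7.10a to GRCm38 (annotation release 91), kept reads with at least 35 matched bases that aligned to 1 place, and deposited the counts per gene, which are raw counts. From these deposited counts, 18652 genes that averaged 1 read or more across the 19 libraries entered the tests, and 1 further column was not used because no label matched it. Each comparison used edgeR 4.0.16 in R 4.3.3 (quasi-likelihood F test, TMM factors, robust) on its own libraries, and the interaction used the 4 groups of CCR1/2 and CCR2 cells. Benjamini-Hochberg adjustment covered all genes tested. Exact permutation tests were two-sided on CPM. The alternatives were DESeq2 1.42.0, RLE factors, library totals, other filters, all 19 libraries in 1 fit, a replicate block, a GC and length offset (mgcv 1.9.3) and leaving out each library. The offset with the block, and a covariate for replicates 1 and 2 against 3 and 4, were chosen after seeing the data. Replicate numbers were taken to pair libraries where every same-number correlation of deviations over 9158 genes was above 0.1: 0.33 to 0.54 for the resting groups and 0.14 to 0.26 for inflamed CCR1 with CCR2. Gene names, coordinates and lengths came from GENCODE vM21 on GRCm38.p6, and start windows from RefSeq. Named with values were the stalk proteins and Rpsa, paralog pairs, members with a textbook role outside the ribosome, the 5 highest and 5 lowest per kb, and in each comparison the called members with the smallest p, those called against the common direction or those past a log2 fold change of 1 (up to 10), with the 2 pathway genes of smallest p per list and direction. Sequences were shown for members chosen after their values were seen. The members and lists were chosen with earlier results of these data known. Scripts were tested on simulated data.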

Additional observations from a re-analysis of the deposited data

Results flagged for a closer look

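In 4 of 200 sets of 4 libraries examined, 1 library lay far from the other 3 of its group by Dixon's 95% criterion, which chance alone meets in about 1 of 20 sets. Rpl32 was highest in 1 resting CCR2 library at 813 CPM, with the others at 706 to 718 CPM. Rpl32l reached 11.4 CPM in 1 resting CCR1/2 library, with the others at 8.71 to 9.0 CPM. Rps27 was lowest in 1 resting CCR1/2 library at 332 CPM, with the others at 409 to 413 CPM. Rps6 reached 359 CPM in 1 library of the inflamed CCR1 group, with the others at 327 to 332 CPM.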

How the results depend on the processing

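The direction of the members' median held under every alternative for the resting comparison (0.11 to 0.24) and for inflammation in CCR2 (-0.33 to -0.10) and CCR1/2 cells (-0.58 to -0.20), while counts of calls moved. It was not below the median of all genes in CCR1/2 cells with the GC and length offset (-0.21 beside -0.22) or with no filter on low counts (-0.39 beside -0.45). At rest, the higher calls numbered 50 with library totals (61.7%, against 10.2% of all genes) and 19 with the GC and length offset (23.5%, against 8.13%). They numbered 3 with all 19 libraries in 1 fit (3.7%, against 5.39%) and 0 with a log2 fold change of 1 as well (2.34% of all genes). The lower calls numbered 3 with the replicate block (3.7%, against 13.2%) and 1 with the offset (1.23%, against 7.25%). They numbered 7 with the offset and block (8.64%, against 12.2%) and 1 with the covariate for replicates (1.23%, against 11.6%). Where no share of all genes is given above, the counts that follow show only how far the calls moved. In CCR2 cells inflammation gave 14, 10, 12 and 0 higher calls with the offset, the fit of all 19, the offset and block, and the fold, and 13 lower calls with the fold. In CCR1/2 cells it gave 5 higher calls with DESeq2, 5 with RLE, 1 with library totals, 9 with the offset, 6 with the fit of all 19, 7 with the offset and block and 0 with the fold, and 34, 34, 32 and 16 lower calls with the offset, the fit of all 19, the offset and block, and the fold. Inflamed CCR1 against CCR2 gave 1 higher and 0 lower call with the fold, and 21, 11, 27 and 13 lower calls with the offset, the fit of all 19, the offset and block, and the covariate. Against CCR1/2 it gave 2 higher and 1 lower with the fold, 3 higher with the replicate block, and 8, 20 and 8 lower with library totals, the offset and the fit of all 19. The interaction gave 2 lower calls with DESeq2 and 1 with library totals. The causes were not tested.

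Leaving out 1 library at a time gave 19 to 33 higher and 0 to 0 lower calls at rest, 5 to 12 and 18 to 33 in CCR2 cells, 2 to 3 and 38 to 51 in CCR1/2 cells, 2 to 10 and 4 to 19 for inflamed CCR1 against CCR2, 3 to 8 and 8 to 12 against CCR1/2, and 0 to 0 and 0 to 2 in the interaction. Against CCR2 the extremes came without inflamed CCR1 replicate 1 (2 higher) and inflamed CCR2 replicate 4 (19 lower). Where no share of all genes is given above, the counts of members called in this paragraph show only how far the calls moved. The share of reads was 3.34%, 2.91%, 2.41%, 2.51% and 2.45% (resting CCR1/2, resting CCR2, inflamed CCR1/2, CCR1 and CCR2) when the 100 most abundant other genes left the denominator, and 1.28%, 1.11%, 0.872%, 0.790% and 0.892% over members without overlapped exons. Rps19 in CCR1/2 cells turned from -0.30 to 0.46 with the offset and 0.44 with the offset and block. Of 107 calls of named members, 97 held with DESeq2, 83 with the offset, 74 with all 19 libraries in 1 fit and 98 with the replicate block. In the comparisons other than at rest and inflamed CCR1 against CCR2, same-numbered libraries did not all deviate together (correlations from -0.32 to 0.50), and the block gave 6 higher and 30 lower calls in CCR2 cells and 2 and 44 in CCR1/2 cells. At these depths counting error is small for most members, and levels below 1 CPM, as of Rpl24, Rpl3l and Rpl39l, are the least certain.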

Other observations

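Outside the members, the genes whose CPM followed the members' summed CPM most closely over the 19 libraries were Gm11808 (Spearman's rho 0.94), Sec61b (0.92), Gm7536 (0.91), Cstb (0.89) and Gtf2b (0.89). Sec61b encodes a subunit of the channel through which ribosomes thread new proteins into the endoplasmic reticulum, and Cstb an inhibitor of cathepsins. Gm7536 is the gene that shares the most sequence words with the member Rpl27a, so it does not stand apart from the members. How far shared sequence accounts for its correlation was not tested. What Gm11808 is was not examined here. The libraries fall into a resting and an inflamed set, so these correlations are descriptions given without a test.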
